A study of Mus musculus with 9 samples.

Results

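The genes described here were 31 genes of the neuropeptide system of the mouse, measured in single neurons of the developing ventral midbrain. They comprised 19 peptide precursors, 6 granins, 5 processing genes and 1 peptide-binding protein. They were chosen by symbol from 32661 entries that were neither spike-ins nor mitochondrial, and each of the 31 had its own entry. Neuropeptides are cut from larger precursor proteins in the secretory pathway and are stored in dense-core vesicles, from which a neuron releases them beside its fast transmitter. Granins help to form these vesicles, the prohormone convertases Pcsk1 and Pcsk2 cut the precursors, Cpe trims the cut ends, and Pam adds the terminal amide that many peptides need to act. Most peptides act through G protein-coupled receptors, and GABA neurons of many brain regions are told apart by the precursor that they carry.

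All cells were ventral midbrain cells of mice with 3 alleles, VGAT-Cre, Ai14 and Pitx3-GFP (VGAT:Ai14:PITX3-GFP in the labels). In these mice Cre under the control of VGAT (Slc32a1, the vesicular GABA transporter) switches on tdTomato from the Ai14 allele, and GFP reports Pitx3, a transcription factor of dopamine neurons. Cells were sorted singly into plates as tdTomato+ (the VGAT sort, 4 plates at E16 and 3 at P0) or as tdTomato+ GFP+ (the VGAT+PITX3 sort, 1 plate at each stage). The label is a lineage label, so a cell that used VGAT earlier stays tdTomato+, brains of several litters were pooled, and no source gives the animals of each plate, so p-values measure the spread between plates. Wells were kept if they had 2000 or more genes, no more than 50000 counts and under 15% mitochondrial counts. This left 2035 of 3455 wells, 1460 in the VGAT sort and 575 in the VGAT+PITX3 sort.

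A plate held 44 to 305 kept cells and 1434306 to 5403472 counts, with a median of 7039 to 33235.5 counts per cell. The sorts followed their labels: 6 dopamine neuron markers summed to 73.9 to 115 CPM (counts per 1000000 counts of a plate) on the VGAT plates and to 2962 and 2351 CPM on the E16 and P0 VGAT+PITX3 plates, while 3 GABA neuron markers summed to 1575 to 2087 CPM and to 1126 and 1277 CPM. Of the GABA markers, Gad1 was at 13.9 and 9.85 CPM on the VGAT+PITX3 plates, against 797 to 1217 CPM on VGAT plates. Gad2 was higher there, at 895 and 995 against 494 to 631 CPM, and Slc32a1 was at 216 and 272 against 156 to 332.5 CPM. The 3 glutamate neuron markers summed to 1.85 to 24.0 CPM on VGAT plates and to 104 and 201 CPM on VGAT+PITX3 plates. VGAT P0 replicate 2 stood apart, with the lowest median depth (7039 counts per cell), 413 CPM of 6 markers of radial glia and astrocytes against 10.9 to 21.6 CPM on the other VGAT plates, and 51.2 CPM of 5 microglia markers against 1.96 to 31.9 CPM. The 31.9 CPM were those of VGAT E16 replicate 2, against 1.96 to 5.74 CPM on the other VGAT E16 plates, and that plate also had 138 CPM of Dlx1, a forebrain GABA neuron factor, against 25.0 to 33.7. Each cell name carried 2 plate labels, which differed in stage or sort on 6 of the 9 plates. Groups follow the first label, whose sort the dopamine markers matched. No marker checked the stage.

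In the VGAT sort, several precursors varied widely among plates, as did some granins and processing genes, while others varied little. Levels are given as normalized CPM, the CPM of a plate's summed cells after TMM scaling, and are compared within a gene only, since the counts were not set per transcript length. Npy (neuropeptide Y) had a lowest, median and highest level of 9.78, 57.1 and 152.7 normalized CPM over the 7 VGAT plates, a range of 15.6-fold. For Sst, the precursor of the inhibitory peptide somatostatin, these were 27.9, 171.8 and 425 (15.2-fold), and for Nts, the neurotensin precursor, 3.10, 8.24 and 42.5 (13.7-fold). Tac1, which encodes substance P and neurokinin A, spanned 9.88-fold, and Penk, the precursor of the enkephalins, whose locus A830012C17Rik overlaps on the opposite strand, 4.17-fold. Pnoc, the precursor of nociceptin, was the steadiest of the precursors named here, with 112, 136 and 179 normalized CPM, a range of 1.60-fold.

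Among the granins and processing genes, the range was 6.33-fold for Vgf, 3.15-fold for Pcsk1, 2.28-fold for Pcsk1n, 2.20-fold for Scg2 and 2.07-fold for Chga. The rest were steadier. Cpe (carboxypeptidase E) had 826 as its lowest, 904 as its median and 962 as its highest normalized CPM, a range of 1.16-fold. Scg5, which encodes a chaperone of Pcsk2, ranged over 1.17-fold, and the chromogranin Chgb over 1.26-fold. Several precursors were at the limit of detection. Ucn (urocortin) had no count on any plate and Vip (vasoactive intestinal peptide) none on a VGAT plate, which allows up to 0.555 to 2.09 CPM on a single plate before scaling. Crh (corticotropin-releasing hormone), Pomc (pro-opiomelanocortin), Trh (thyrotropin-releasing hormone) and Cartpt (the CART precursor) stayed at or under 3.71 normalized CPM on every plate. The dynorphin precursor Pdyn (4.62 to 11.5), the galanin precursor Gal (3.82 to 14.2) and the neuromedin B precursor Nmb (3.98 to 12.2) were low on all 7 VGAT plates.

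**Figure D1:**
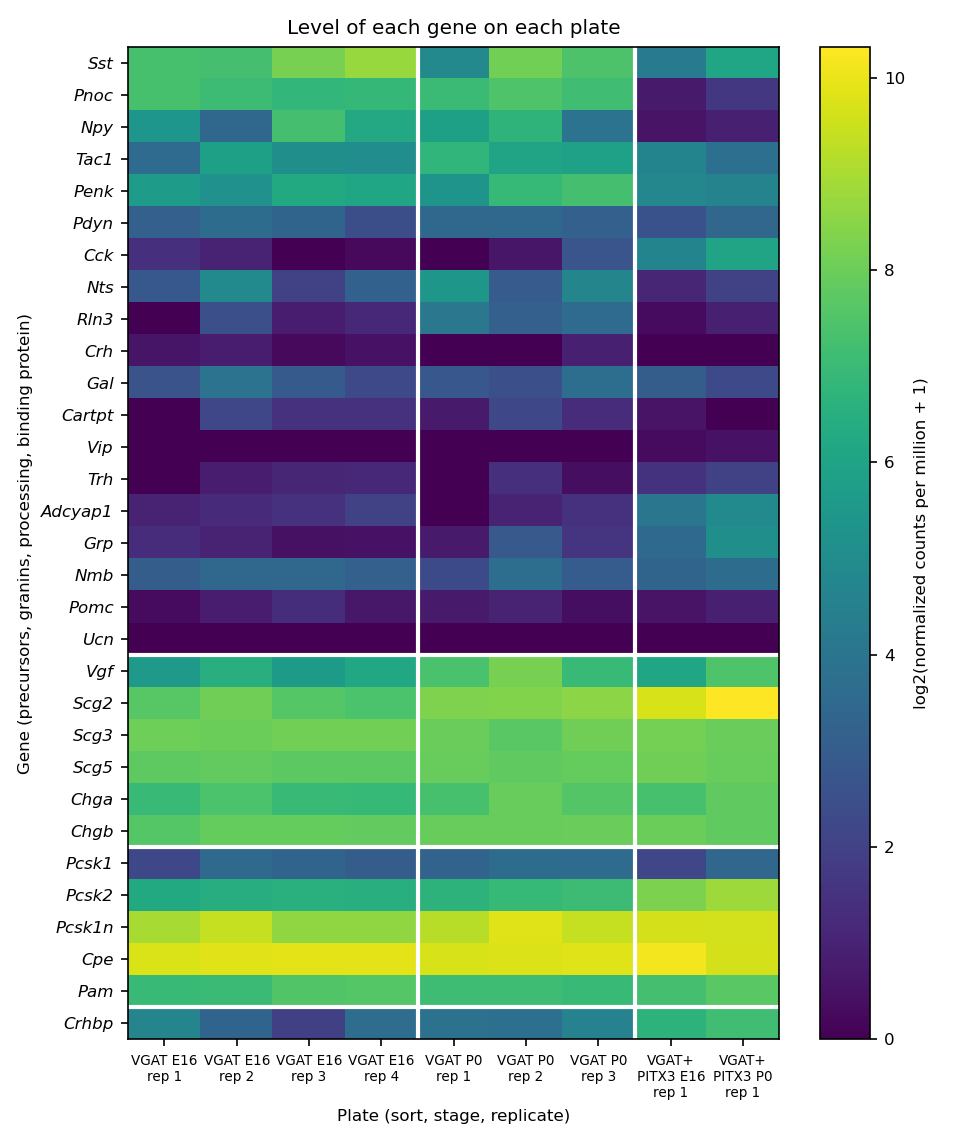
Heatmap of the level of the 31 genes (rows, ordered by role) on the 9 plates (columns, by sort and stage), coloured by log2(normalized CPM + 1). Cpe, Scg3, Scg5 and Chgb are evenly coloured across VGAT plates, Sst, Npy, Tac1 and Penk vary from plate to plate, and Pnoc and Npy fall to near 0 on both VGAT+PITX3 plates.

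Promoters of the members are shown because several of these genes are textbook targets of cyclic AMP signalling through the cyclic AMP response element (CRE), and Sst is the gene in which that element is classically described. RefSeq promoters (300 bases, 250 before to 50 after the transcription start, GRCm38.p6) were matched by symbol for 25 of the 31 members. Pnoc, Penk, Crh, Grp, Vgf and Cpe had no entry. The full palindromic CRE, TGACGTCA, which reads the same on both strands, occurred in 6 members, in 1 promoter each. The same letters occurred in 588 of all 32851 promoters of this length, or 1.79%. Each window is printed 5′ to 3′ on the strand of its gene, with the CRE in capitals:
Sst: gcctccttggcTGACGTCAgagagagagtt
Scg2: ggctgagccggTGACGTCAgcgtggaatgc
Chgb: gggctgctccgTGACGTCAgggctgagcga
Pcsk1: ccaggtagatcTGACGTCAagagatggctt
Cartpt: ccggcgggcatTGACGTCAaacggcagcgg
Ucn: atgttcttcgcTGACGTCAgtcggagctgt

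The Sst window was chr16:23890874-23890903 on the minus strand, with the CRE at 48 to 41 bases before the start, and the Scg2 window was chr1:79440076-79440105 on the minus strand, at 68 to 61 bases. For Chgb it was chr2:132781559-132781588 on the plus strand (72 to 65 bases), and for Pcsk1 chr13:75089768-75089797 on the plus strand (78 to 71 bases). The Cartpt window was chr13:99900777-99900806 on the minus strand (112 to 105 bases), and that of Ucn chr5:31138921-31138950 on the minus strand (44 to 37 bases). A match is a description of the letters only. Of the 6 genes, Ucn had no count on any plate and Cartpt was near the limit of detection, while the other 4 were found on every plate.

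Stage was compared over the 7 VGAT plates, the only sort with several plates at each stage. Vgf, a granin-like precursor of several secreted peptides, Scg2 (secretogranin II, the precursor of secretoneurin), Pcsk2 and Rln3 (the relaxin-3 precursor) were higher at P0, and no member was lower. Of the 31 members, 22 had enough counts to be tested and 4 passed edgeR's quasi-likelihood test with Benjamini-Hochberg adjustment over all genes (hereafter edgeR, adjusted p under 0.05). Over all 13639 genes tested, 2.81% were higher at P0 and 1.74% lower. The members' median log2 fold change was 0.39, against 0.01 over all genes, and 16 of 22 members had a positive value, against 51.5% of genes. Adcyap1, Cartpt, Cck, Crh, Grp, Pomc, Trh, Ucn and Vip were too low to be tested.

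Vgf had 46.8, 86.8, 48.8 and 71.3 normalized CPM on the E16 plates and 163, 296 and 122 on the P0 plates, so every P0 plate lay above every E16 plate. Its log2 fold change was 1.67 ± 0.28 (SE; edgeR, adjusted p = 0.0126). P0 replicate 2, the plate with more glial and microglial RNA, was the highest, and without it the log2 fold change was 1.18 (edgeR, adjusted p = 0.0318). After each cell was thinned to 4000 counts, a Vgf count was seen in 11.4% to 20.6% of cells on the E16 plates, in 32.6% and 26.6% on P0 replicates 1 and 3, and in 66.0% on P0 replicate 2. In the VGAT+PITX3 sort, Vgf was 66.7 on the E16 plate and 176 on the P0 plate.

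Scg2 had 201, 274, 195 and 166 normalized CPM at E16 and 318, 326 and 365 at P0, again without overlap, and a log2 fold change of 0.75 ± 0.15 (SE; edgeR, adjusted p = 0.0210). Of the members with a CRE in the promoter, Chgb (0.19), Pcsk1 (0.51) and Sst (−0.60) did not pass, and Cartpt and Ucn were not tested. The Scg2 call did not survive every plate left out: without E16 replicate 1, 3 or 4 the log2 fold change was 0.73, 0.71 or 0.65 (edgeR, adjusted p = 0.0532, 0.0777 and 0.0614), and without P0 replicate 2 or 3 it was 0.74 or 0.70 (edgeR, adjusted p = 0.0543 and 0.0844). Pcsk2 had 75.4, 85.9, 93.5 and 86.8 normalized CPM at E16 and 99.6, 118 and 132 at P0, from a locus that Pcsk2os1 and Pcsk2os2 overlap on the opposite strand. The P0 plates lay above the E16 plates by a small margin, with a log2 fold change of 0.51 ± 0.12 (SE; edgeR, adjusted p = 0.0379). Without E16 replicate 1, 3 or 4 it was 0.47, 0.55 or 0.52 (edgeR, adjusted p = 0.0894, 0.0874 and 0.0908), and without P0 replicate 2 or 3 it was 0.48 or 0.43 (edgeR, adjusted p = 0.0981 and 0.138).

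Rln3 had 0, 4.79, 0.774 and 1.21 normalized CPM on the E16 plates and 15.9, 7.94 and 11.1 on the P0 plates, which did not overlap. Its fitted log2 fold change was 2.74 ± 0.65 (SE; edgeR, adjusted p = 0.0368), which rested on 112 counts in all and on few cells. It had enough counts to be tested through the P0 plates alone, so it had to differ, and leaving it aside 3 members were called. Without E16 replicate 3 or 4 it was 2.48 or 2.59 (edgeR, adjusted p = 0.104 and 0.0923), and without P0 replicate 1, 2 or 3 it was 2.49, 2.91 or 2.79 (edgeR, adjusted p = 0.0716, 0.0656 and 0.110). DESeq2 gave 2.83 (adjusted p = 0.0987).

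**Figure D2:**
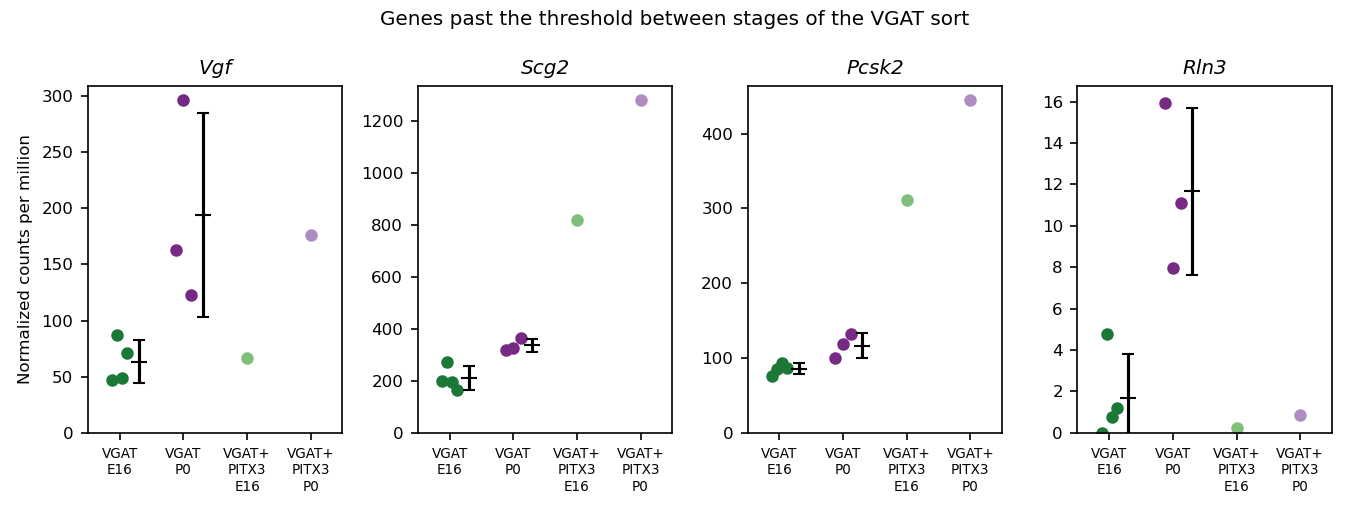
Level in normalized CPM of Vgf, Scg2, Pcsk2 and Rln3 on each plate (points), by sort and stage, with the mean ± SD of the VGAT groups (4 plates at E16, 3 at P0) and single VGAT+PITX3 plates. In each panel the 3 VGAT P0 plates lie above the 4 VGAT E16 plates, and the lower SD bar of Rln3 at E16 is cut at 0.

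The best-known precursors did not pass the test between stages. Sst had 160.4, 152, 293 and 425 normalized CPM at E16 and 27.9, 279.6 and 171.8 at P0 (log2 fold change −0.60; edgeR, adjusted p = 0.504), and the plates of the 2 stages overlapped. Npy gave −0.26 (edgeR, adjusted p = 0.861). On the 3 VGAT plates whose 2 plate labels give the same stage, E16 replicates 1 and 2 and P0 replicate 2, both turned and passed, Sst at 0.92 (edgeR, adjusted p = 0.00578) and Npy at 2.14 (edgeR, adjusted p = 0.0299), a choice of plates made after seeing the data. On all 7 plates, Pnoc gave 0.27 (edgeR, adjusted p = 0.309). Tac1 had 11.1, 57.3, 34.6 and 32.3 at E16 and 109.5, 63.5 and 59.1 at P0, which did not overlap but missed the threshold (log2 fold change 1.21; edgeR, adjusted p = 0.0742). Without E16 replicate 2, the highest of the E16 plates, Tac1 passed (1.58; edgeR, adjusted p = 0.0205). Penk missed it as well (0.93; edgeR, adjusted p = 0.112), and passed without P0 replicate 1 (1.29; edgeR, adjusted p = 0.0211). Nts gave 1.09 (edgeR, adjusted p = 0.309) and passed without E16 replicate 2 (2.11; edgeR, adjusted p = 0.0299).

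Among the other secretory genes, Chga (chromogranin A) had a log2 fold change of 0.62 (edgeR, adjusted p = 0.0554) and passed without E16 replicate 2 (0.75; edgeR, adjusted p = 0.0212) or P0 replicate 1 (0.75; edgeR, adjusted p = 0.0343). Pcsk1n, whose product proSAAS inhibits Pcsk1, had 0.60 (edgeR, adjusted p = 0.0974) and passed without E16 replicate 2 (0.80; edgeR, adjusted p = 0.0243). Cpe (−0.02), Scg3 (−0.10), which helps to sort granins into vesicles, and Pam (−0.19) had log2 fold changes near 0. Of the wider pathway, none of the 4 tested of 36 other precursors passed and none of 11 tested of 13 peptide-degrading enzymes did. Of 27 other processing and dense-core vesicle genes, Pcsk4 (1.31; edgeR, adjusted p = 0.0329) and Pcsk5 (0.65; edgeR, adjusted p = 0.0403), both convertases, were higher at P0 and Syt4 (−0.55; edgeR, adjusted p = 0.0466), a synaptotagmin, was lower. Of 20 region markers, transcription factors and other genes that the study used on these same samples and that are no independent evidence, none was higher and 3 were lower, Bcl11b (−1.43), Sox21 (−1.30) and Tcf7l2 (−1.17).

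The VGAT+PITX3 sort was compared with the VGAT sort over all 9 plates, with stage in the fit, to ask which peptides accompany the cells that carry both markers. The sorts differed in 6 precursors: Cck, Adcyap1 and Grp were higher in the VGAT+PITX3 sort, and Pnoc, Npy and Penk were lower. Crhbp, which binds and holds corticotropin-releasing hormone, and the secretory genes Scg2 and Pcsk2 were also higher. Of 26 members tested, 6 were higher and 3 lower, beside 4.73% and 4.22% of 14624 genes. Cck, Adcyap1, Grp, Pnoc and Npy had enough counts to be tested in 1 sort alone, the one in which they were higher, so they had to differ, and without them the calls were 3 higher (Crhbp, Scg2 and Pcsk2) and 1 lower (Penk). The members' median log2 fold change was 0.09, against −0.00 over all genes. The VGAT+PITX3 sort had 1 plate per stage, so its spread is taken from the VGAT plates.

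Pnoc was at 112 to 179 normalized CPM on the 7 VGAT plates and at 0.680 and 2.16 on the E16 and P0 VGAT+PITX3 plates, where 3 and 5 counts were found. No plates overlapped, and the fitted log2 fold change was −6.78 ± 0.35 (SE; edgeR, adjusted p = 6.25e-09). Npy was at 9.78 to 152.7 on VGAT plates and at 0.454 and 0.864 on the others, from 2 counts on each (−6.67 ± 1.54, SE; edgeR, adjusted p = 0.0117). Leaving out the E16 VGAT+PITX3 plate gave −5.95 (edgeR, adjusted p = 0.246) and leaving out the P0 one −7.16 (edgeR, adjusted p = 0.0815). Penk was at 36.6 to 152.8 on VGAT plates and at 26.8 and 23.8 on the others, without overlap (−1.53 ± 0.42, SE; edgeR, adjusted p = 0.0321). Without the E16 VGAT+PITX3 plate Penk gave −2.15 (edgeR, adjusted p = 0.0823) and without the P0 one −1.11 (edgeR, adjusted p = 0.384).

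Cck (cholecystokinin), a peptide of many dopamine neurons, was at 24.0 and 63.5 normalized CPM on the E16 and P0 VGAT+PITX3 plates and at a lowest, median and highest of 0, 0.530 and 5.56 on the VGAT plates. Its log2 fold change was 4.82 ± 0.50 (SE; edgeR, adjusted p = 1.21e-05). Adcyap1, the precursor of PACAP, was at 15.4 and 28.5 against 0, 1.34 and 3.01 (3.71 ± 0.42, SE; edgeR, adjusted p = 2.51e-05). Grp (gastrin-releasing peptide) was at 10.7 and 34.5 against 0.387, 0.959 and 6.35 (3.63 ± 0.44, SE; edgeR, adjusted p = 4.81e-05). For these 3 genes both VGAT+PITX3 plates lay above all VGAT plates.

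Crhbp was at 101 and 141 normalized CPM on the VGAT+PITX3 plates against 2.90, 12.7 and 24.6 on the VGAT plates (3.08 ± 0.36, SE; edgeR, adjusted p = 3.58e-05). Scg2 was at 817 and 1278 against 166, 274 and 365 (1.97 ± 0.14, SE; edgeR, adjusted p = 2.60e-07). Pcsk2 was at 311 and 445 against 75.4, 93.5 and 132 (1.91 ± 0.12, SE; edgeR, adjusted p = 4.18e-08). The sorts did not overlap for any of these 3 genes, all of which passed with each plate left out. The dopamine and glutamate neuron markers given above were also higher in the VGAT+PITX3 sort, as were those of radial glia and astrocytes, at 160.2 and 145 CPM, than on all VGAT plates but P0 replicate 2. Their part in these differences was not tested.

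**Figure D3:**
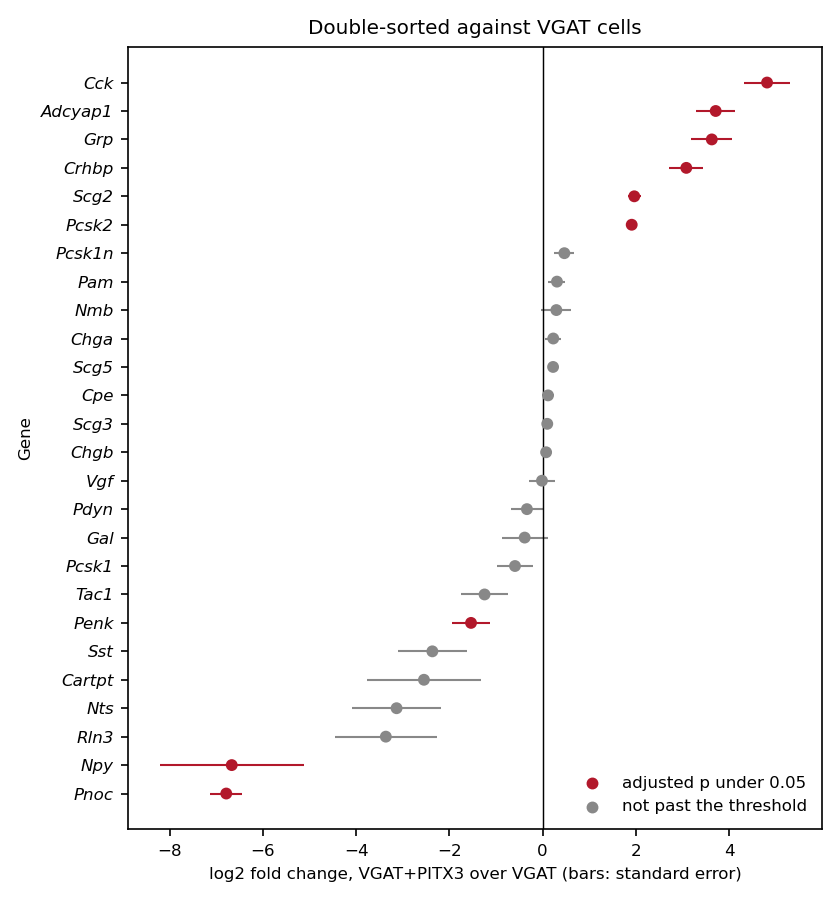
Log2 fold change (VGAT+PITX3 over VGAT, ± SE) of the 26 members tested over 9 plates, red where the edgeR adjusted p was under 0.05. Cck, Adcyap1, Grp and Crhbp lie at the high end between 3.08 and 4.82, Pnoc and Npy at the low end near −6.7, and most granins and processing genes near 0.

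The 8 other precursors tested missed the threshold. Sst was at 18.4 and 65.2 normalized CPM on the VGAT+PITX3 plates (log2 fold change −2.36; edgeR, adjusted p = 0.0675), and passed without VGAT P0 replicate 1, where it was lowest (−2.72; edgeR, adjusted p = 0.00509), or without the P0 VGAT+PITX3 plate (−3.80; edgeR, adjusted p = 0.0368). Nts gave −3.13 (edgeR, adjusted p = 0.0602), and passed without VGAT E16 replicate 2 or 3 or P0 replicate 2 (−2.69, −3.30 and −3.37; edgeR, adjusted p = 0.0235, 0.0233 and 0.0282). Rln3 gave −3.36 (edgeR, adjusted p = 0.0814), and passed without VGAT E16 replicate 1 or 2 (−3.47 and −3.08; edgeR, adjusted p = 0.0253 and 0.0472). Tac1, at 24.0 and 12.5 against 11.1 to 109.5, gave −1.24 (edgeR, adjusted p = 0.186), and passed without VGAT E16 replicate 1 (−1.44; edgeR, adjusted p = 0.0314). Cartpt gave −2.54 (edgeR, adjusted p = 0.299), Gal −0.38, Pdyn −0.34 and Nmb 0.30.

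The stage difference of a member was not shown to differ between sorts: 0 of 27 members passed the test of the interaction of stage and sort, as 0% of 15724 genes in the higher direction and 0% in the lower did in edgeR. At an unadjusted p under 0.05 there were 999 genes, and DESeq2 called 13. The only member among the 999 was Tac1 (−2.09; edgeR, adjusted p = 0.772). In the wider pathway, 1 of 7 tested other precursors was higher in the VGAT+PITX3 sort, Calca, the precursor of calcitonin gene-related peptide (3.06; edgeR, adjusted p = 0.00779), which reached the filter on low counts through the VGAT+PITX3 plates alone, at 20 and 18 counts against 0 to 8. Of 27 other processing and vesicle genes, Cadps2 (2.06), Pcsk6 (2.07), Syt4 (0.65) and Syt7 (0.69) were higher, and Slc30a3, a vesicular zinc transporter (−7.08, with enough counts on VGAT plates alone), and Syt9 (−1.35) were lower. Of 11 peptide-degrading enzymes, Mme (neprilysin) was lower (−3.33; edgeR, adjusted p = 0.0115), also with enough counts on VGAT plates alone. Of the 20 region markers, chosen on these samples, Foxp2 (1.61) and Nr4a2 (3.66) were higher and 16 were lower, among them Bcl11b, Dlx1, Gata3, Lamp5, Nkx2-2, Otp, Otx2, Pax5, Pax7, Six3, Sox14, Tal1 and Tcf7l2. Dlx1, Gata3, Lamp5, Otp, Pax5, Pax7, Six3, Sox14 and Tal1 had enough counts on VGAT plates alone, so they had to differ.

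Which cells hold these precursors was then asked cell by cell, with a carrier defined as a cell with at least 3 counts of a precursor. Of 1460 VGAT cells, 399 (27.3%) carried Pnoc, 190 (13.0%) Sst, 140 (9.59%) Penk, 87 (5.96%) Npy and 58 (3.97%) Tac1. Gal had 21 carriers, Nts and Pdyn 19 each, Rln3 10, Nmb 8, Adcyap1 5, Cartpt 4, and Cck and Grp 2 each. Crh, Pomc, Trh, Ucn and Vip had 0 of 1460, which allows up to 0.205% of cells at 3 counts and sets no limit on cells with fewer. Crh, Pomc and Trh did have counts in VGAT cells. Such shares move with depth and with how well a transcript is captured, so each cell was also thinned to 4000 counts and scored at 1 count. That gave 29.9% for Pnoc, 22.2% for Sst, 12.9% for Penk, 12.5% for Npy and 5.97% for Tac1.

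In the VGAT+PITX3 sort, 0 of 575 cells carried Pnoc or Npy, which allows up to 0.522% of cells at 3 counts and sets no limit on cells with fewer. Their shares at 1 count after thinning were 0.547% and 0.730%, a level at which free RNA cannot be told apart from expression, at median depths of 13855 and 7462 counts per cell on the 2 plates. Sst (2.78% of cells), Penk (2.96%) and Tac1 (2.43%) still had carriers there, with thinned shares of 5.11%, 6.20% and 6.02%. For Tac1 the thinned share in the VGAT sort, 5.97%, was about the same over both stages together. By stage the sorts went opposite ways. The E16 VGAT+PITX3 plate had 7.36%, against a mean of 5.30% over 4 VGAT plates, and the P0 one 4.42%, against 8.07% over 3. The carriers of Cck (26), Adcyap1 (16), Grp (10) and Crhbp (102) in the VGAT+PITX3 sort made up 4.52%, 2.78%, 1.74% and 17.7% of cells, against 0.137%, 0.342%, 0.137% and 1.99% in the VGAT sort. Thinned shares were 13.3%, 6.75%, 7.12% and 28.6% against 0.497%, 0.497%, 0.639% and 3.76%.

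Shares also varied among VGAT plates. Pnoc carriers made up 18.3% to 38.6% of a plate's cells, with the lowest share on P0 replicate 2 (95% exact binomial interval 13.4% to 24.0%) and the highest on P0 replicate 1 (24.4% to 54.5%, from 17 of 44 cells). After thinning the order changed, with 41.8% on P0 replicate 2 and 23.3% on P0 replicate 1. Sst carriers made up 4.55% to 17.8%, Npy carriers 1.75% to 13.6%, Penk carriers 6.58% to 22.2% and Tac1 carriers 2.62% to 11.4%. These intervals cover counting error only. In all, 50.3% of VGAT cells had no precursor at 3 counts, 35.4% had 1, 12.5% had 2 and 1.85% had 3 or more, against 82.96%, 16.5%, 0.522% and 0% in the VGAT+PITX3 sort. After thinning and at 1 count, 65.0% of VGAT cells and 47.3% of VGAT+PITX3 cells had a precursor.

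Carriers were compared with cells that had no count of that precursor on the same plate, for the 5 precursors with at least 5 carriers on at least 3 VGAT plates, with plate as a block. Carriers tended to be deeper cells, with a median depth ratio of 1.31 for Pnoc, 1.48 for Sst, 1.16 for Penk, 1.06 for Npy and 1.17 for Tac1. Counts were scaled per sum, and a choice of carriers after thinning was an alternative. Levels in these comparisons are CPM of the summed cells, before TMM scaling. Without plate as a block, 2 of the member calls passed, Pcsk1 and Pcsk2 in Tac1 carriers, and Rln3 was not tested. Most member calls, 9, were made in Tac1 carriers. Of 20 members tested, 4 were higher and 5 lower in 58 carriers than in 1243 cells without Tac1, beside 1.56% and 2.69% of 10590 genes. Rln3 and Pcsk1 had enough counts in the carriers alone and so had to differ, and without them 2 were higher and 5 lower.

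The Tac1 carriers held nearly all of the Rln3. Rln3 lies on chromosome 8 from 84042929 to 84045000 (minus strand) and Tac1 on chromosome 6 from 7554879 to 7565834 (plus strand, GRCm38), and no annotated gene overlaps either. The carriers held 108 of 112 Rln3 counts (96.4%). Per plate, Rln3 was at 0, 91.0, 15.7 and 39.7 CPM in the carriers of E16 replicates 1 to 4 and at 146, 212 and 256 in those of P0 replicates 1 to 3. In cells without Tac1 it was at 0 on 6 plates and at 1.06 on P0 replicate 1, from 1 count. The ratio of the summed levels was 2035, with a 95% counting interval of 358 to 81113. That interval treats each count as independent and covers no spread between cells or plates. In all, 10 cells on 6 plates carried Rln3, with 4 to 28 Rln3 counts each. All 10 also had at least 3 counts of Tac1 (7 to 48 counts), all 10 had at least 3 of Nr4a2, 8 had at least 3 of Slc32a1, and 0 carried another precursor. In turn, 15 of the 58 Tac1 carriers had a count of Rln3. After thinning, 10 of 11 cells with a Rln3 count had a Tac1 count, among 84 such cells of 1408.

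**Figure D4:**
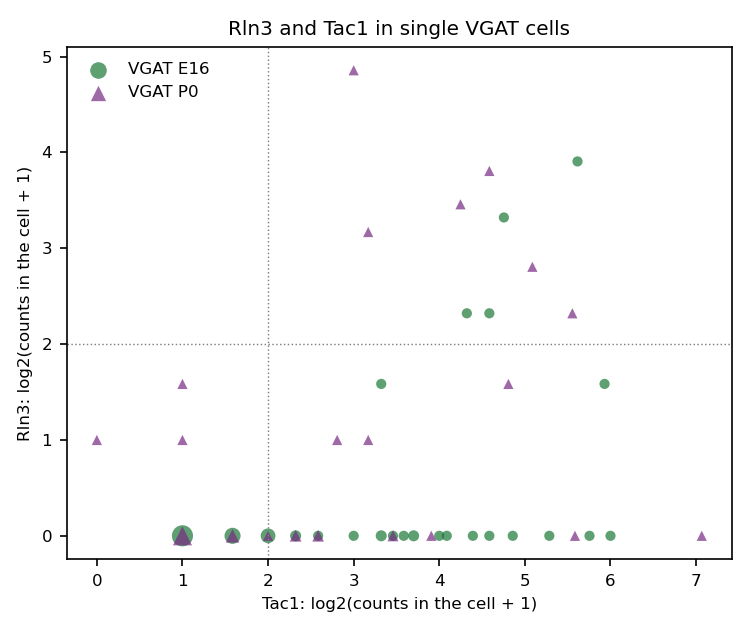
Rln3 against Tac1 counts per VGAT cell, each as log2(counts + 1), with circles for E16, triangles for P0, larger markers for more cells and dotted lines at 3 counts. The 10 cells above the Rln3 line all lie to the right of the Tac1 line, and most Tac1 carriers lie at 0 Rln3.

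The fitted fold changes of the convertases Pcsk1 and Pcsk2 had opposite signs in these cells, with the limits given for each. Pcsk1 was at 25.8, 80.1, 55.0 and 46.3 CPM in the Tac1 carriers of the E16 plates and at 50.9, 176 and 101 in those of the P0 plates, against 3.25 to 6.73 CPM in cells without Tac1. The sets did not overlap, and the log2 fold change was 3.54 ± 0.32 (SE; edgeR, adjusted p = 2.61e-07), which passed under each alternative run. Pcsk1 had enough counts in the carriers alone, so it had to differ to be tested. Of 18 Pcsk1 carriers among the VGAT cells, 10 were Tac1 carriers, and 5 of the 10 Rln3 carriers had at least 3 Pcsk1 counts. Pcsk2 was lower, at 25.8, 21.8, 31.4 and 19.8 CPM in carriers at E16 and 76.3, 35.3 and 128 at P0, against 82.9 to 128 in the other cells (−1.12 ± 0.24, SE; edgeR, adjusted p = 0.00544). It was lower on 6 of 7 plates, and missed the threshold when carriers were chosen after thinning. Pcsk1n was higher on 7 of 7 plates, at 456 to 1888 CPM against 377 to 881 (0.58 ± 0.11, SE; edgeR, adjusted p = 0.00146), and also missed it after thinning.

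Among granins, Scg2 was higher in Tac1 carriers on 6 of 7 plates, at 68.9, 342, 448 and 416 CPM at E16 and 731, 777 and 857 at P0, against 160.4 to 374 in cells without Tac1 (0.84 ± 0.20, SE; edgeR, adjusted p = 0.0121). E16 replicate 1 was the exception. The call was lost without E16 replicate 3 (0.74; edgeR, adjusted p = 0.0730), P0 replicate 2 (0.80; edgeR, adjusted p = 0.0695) or P0 replicate 3 (0.78; edgeR, adjusted p = 0.0572), and when carriers were chosen after thinning. Vgf was lower on 6 of 7 plates (−1.003 ± 0.24, SE; edgeR, adjusted p = 0.0128), and the call was lost without E16 replicate 2 (−0.90; edgeR, adjusted p = 0.0518) or P0 replicate 1 (−0.81; edgeR, adjusted p = 0.0558) and after thinning. Pam was lower on 7 of 7 plates (−0.65 ± 0.18, SE; edgeR, adjusted p = 0.0427). It was lost without E16 replicate 1, 3 or 4 or P0 replicate 2 (−0.64, −0.44, −0.59 and −0.67; edgeR, adjusted p = 0.0706, 0.257, 0.147 and 0.0740) and after thinning. DESeq2 called none of these 3 genes (adjusted p = 0.0641, 0.0790 and 0.119).

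Of the 8 other precursors tested in Tac1 carriers, Npy and Sst were lower. Npy was at 0 to 88.2 CPM against 9.83 to 157, lower on 7 of 7 plates (−2.25 ± 0.35, SE; edgeR, adjusted p = 0.000205), though not past the threshold after thinning. Sst was at 6.75 to 293 against 39.2 to 399, lower on 6 of 7 (−1.94 ± 0.40, SE; edgeR, adjusted p = 0.00341), with E16 replicate 1 as the exception. Pnoc and Penk did not pass (−0.77 and −0.28; edgeR, adjusted p = 0.138 and 0.850). Both passed when carriers were chosen after thinning (−1.63 and −2.36; edgeR, adjusted p = 0.0481 and 0.0280). Pnoc also passed without E16 replicate 2 (−1.18; edgeR, adjusted p = 0.0102). Nts (2.98; edgeR, adjusted p = 0.000153) and the granin Chga (−1.61; edgeR, adjusted p = 0.0333) passed only with carriers chosen after thinning. Outside the members, the 5 genes with the largest increase on every plate were Nr4a2, a nuclear receptor (5.27 ± 0.35), Ell2, an elongation factor (4.88 ± 0.29), Cmbl (4.48 ± 0.55), AC122538.2 (4.00 ± 0.61) and Gm9916 (3.58 ± 0.63). Of these, only Nr4a2 was checked for having enough counts in the carriers alone, and it had enough in the other cells too. Nr4a2 was at 405 to 925 CPM in carriers and at 3.34 to 82.0 CPM in cells without Tac1, and 30 of the 65 VGAT cells with at least 3 Nr4a2 counts were Tac1 carriers. Of 19 region markers tested, Nr4a2 and Nkx2-2 (1.61) were higher, and 10 were lower, among them Sox21 (−3.41), Pax7 (−2.84), Pax5 (−2.78), Lamp5 (−2.29), Bcl11b (−1.87), Sox14 (−1.75) and Foxp2 (−1.06). Sox21, Pax7 and Lamp5 had enough counts in the cells without Tac1 alone, so they had to differ. Of 24 other processing and vesicle genes, Syt4 was higher (0.77) and Cadps2 lower (−0.86).

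**Figure D5:**
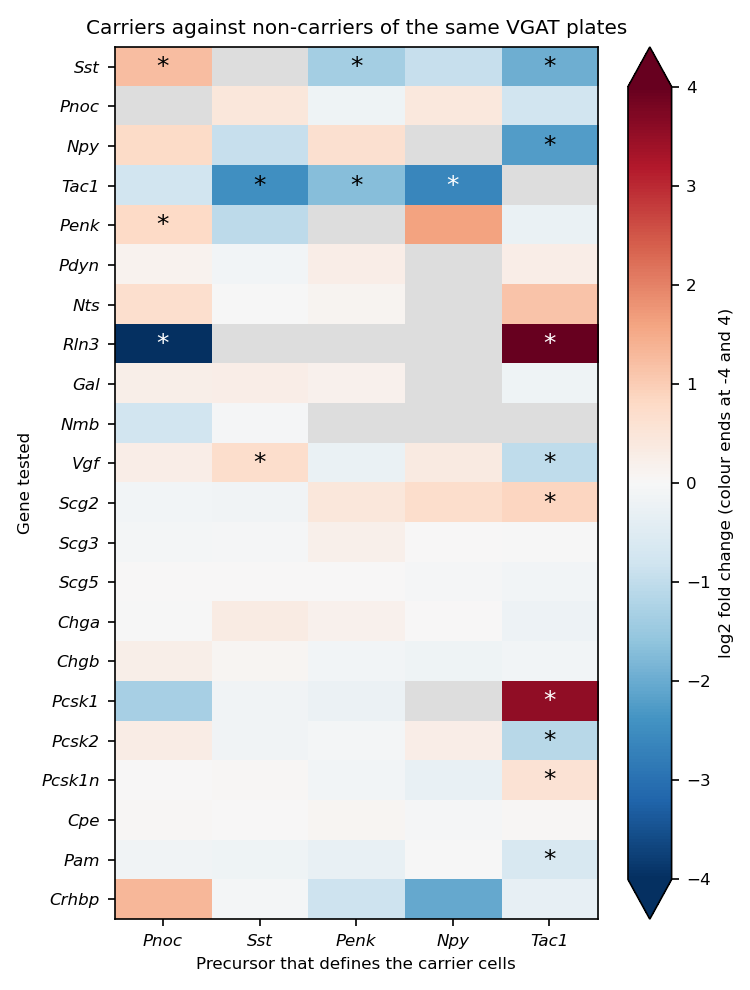
Log2 fold change of the members (rows) in carriers of Pnoc, Sst, Penk, Npy and Tac1 (columns) against cells of the same VGAT plates without that precursor, with a star where the edgeR adjusted p was under 0.05, grey where not tested and colours ending at −4 and 4. The Tac1 column holds 9 stars, and Tac1 is starred as lower in the columns of Sst, Penk and Npy.

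With carriers defined at 3 counts, Tac1 was in turn lower in the carriers of 3 other precursors, but none of these calls held when carriers were chosen after thinning, where the log2 fold changes were −2.03 for Npy, −0.61 for Sst and −1.06 for Penk carriers (edgeR, adjusted p = 0.644, 0.871 and 0.773). As shares of thinned cells, Tac1 was in 6.07% of cells with Sst and 5.94% of the others, in 7.18% of cells with Penk and 5.79% of the others, and in 3.98% of cells with Npy and 6.25% of the others. In 80 Npy carriers on 5 plates, Tac1 was at 6.07, 9.90 and 3.32 CPM on E16 replicates 1, 3 and 4 and at 5.91 and 11.2 on P0 replicates 1 and 2, against 13.5 to 154 in 668 cells without Npy. Tac1 had enough counts to be tested in the cells without Npy alone. The levels did not overlap (−2.62 ± 0.38, SE; edgeR, adjusted p = 0.00208). It was the single member called of 15 tested, beside 0.246% of 10562 genes higher and 0.312% lower. Penk was at 6.07 to 302 against 38.4 to 108 and did not pass (1.62; edgeR, adjusted p = 0.103), with 3 of 5 plates higher. It passed without E16 replicate 1 (2.00; edgeR, adjusted p = 0.00721) or P0 replicate 1 (1.86; edgeR, adjusted p = 0.00387), and when carriers were chosen after thinning, while the Tac1 call was then lost. Sst (−0.94; edgeR, adjusted p = 0.378) passed without P0 replicate 2 (−1.49; edgeR, adjusted p = 0.0190), and Scg2 (0.69; edgeR, adjusted p = 0.572) without P0 replicate 1 (1.03; edgeR, adjusted p = 0.00537). With Npy carriers chosen after thinning, Sst (−1.58; edgeR, adjusted p = 0.000136), Scg2 (0.91; edgeR, adjusted p = 0.0242) and Pnoc (0.98; edgeR, adjusted p = 0.0334) passed as well.

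Outside the members, Npy carriers were highest in Mme, the peptide-degrading enzyme neprilysin, at 36.4 to 78.4 CPM against 2.65 to 14.2, higher on 5 of 5 plates (2.63 ± 0.31, SE; edgeR, adjusted p = 0.000326). Mme had enough counts to be tested in the carriers alone, so it had to differ. Mme was the only one called of 11 peptide-degrading enzymes tested in these carriers. The next 4 genes by log2 fold change were taken from the called genes that were higher on every plate. They were Pcdh11x (1.92) and Cntnap5b (1.55), which encode adhesion proteins, Sema3e (1.48), a guidance cue, and Meis2 (1.38), a transcription factor. Of 19 region markers, Nkx2-2 (0.89) and Gata3 (0.62) were higher, and Nr4a2 (−4.68), Dlx1 (−3.45) and Otx2 (−1.68) lower. Nr4a2 and Dlx1 had enough counts in the cells without Npy alone, so they had to differ. Cadps2, a dense-core vesicle gene, was higher (1.25), the only one of 24 such genes called.

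In 188 Sst carriers on 6 plates, 1 member was higher and 1 lower of 20 tested, beside 0.476% and 0.586% of 10918 genes. Vgf was higher on 6 of 6 plates, at 74.7, 114, 88.8 and 95.3 CPM at E16 and 417 and 203 on P0 replicates 2 and 3, against 35.1, 91.4, 37.9, 55.3, 330 and 125 on the same plates (0.71 ± 0.12, SE; edgeR, adjusted p = 0.0120). Without E16 replicate 4 this was 0.69 (edgeR, adjusted p = 0.0512). Tac1 was lower on 5 of 6 plates, at 2.20 to 15.6 CPM against 14.2 to 124 (−2.46 ± 0.32, SE; edgeR, adjusted p = 0.00320). Both calls were lost when carriers were chosen after thinning, and DESeq2 gave no adjusted p for Tac1. Penk gave −1.06 (edgeR, adjusted p = 0.331). It passed without E16 replicate 1 (−1.96; edgeR, adjusted p = 9.16e-05) and with carriers chosen after thinning (−1.40; edgeR, adjusted p = 0.0259). Among genes past the threshold, only those higher on every plate were ranked. The largest increases were then in Gm20649 (2.21), D930028M14Rik (1.99), the transcription factor Sall3 (1.60), the complement protease Masp1 (1.54) and Coch (1.42). Of 19 region markers, Onecut2 was higher (1.35) and Bcl11b (−0.78) and Sox14 (−0.72) lower, and Mme was lower (−2.63; edgeR, adjusted p = 0.0122). Mme had enough counts in the cells without Sst alone, so it had to differ.

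In 140 Penk carriers on 7 plates, 2 of 19 members passed, both lower, beside 0.302% of 10940 genes higher and 0.457% lower. Sst was at a lowest, median and highest of 33.5, 81.2 and 143 CPM, against 31.2, 187 and 412 in 1096 cells without Penk, and was lower on all plates but P0 replicate 1 (−1.36 ± 0.22, SE; edgeR, adjusted p = 0.00531). Tac1 was lower on 6 of 7 plates, at 6.77 to 39.1 CPM against 12.0 to 199.7 (−1.70 ± 0.33, SE; edgeR, adjusted p = 0.0192), and lost the call without P0 replicate 2 (−1.61; edgeR, adjusted p = 0.0505), without P0 replicate 3 (−1.50; edgeR, adjusted p = 0.103) and after thinning. The genes named next had the largest increase among those past the threshold and higher on every plate. They were Pappa (2.30), a protease of insulin-like growth factor binding proteins, Il17rd (1.79), Wls (1.76), which carries Wnt proteins, Igf1 (1.74) and Ndst3 (1.62). Of 19 region markers, Lamp5 was higher (1.45), and those lower included Nr4a2 (−5.18), Pax5 (−2.97) and Sox21 (−2.75). Nr4a2 had enough counts in the cells without Penk alone, so it had to differ.

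In 399 Pnoc carriers on 7 plates, 2 members were higher and 1 lower of 21 tested, beside 0.682% and 1.02% of 12455 genes. Penk was higher on 7 of 7 plates, at 64.6, 36.0, 125 and 114 CPM at E16 and 59.8, 89.4 and 233 at P0, against 45.3, 33.8, 65.9, 57.6, 24.1, 49.7 and 128 on the same plates (0.79 ± 0.11, SE; edgeR, adjusted p = 0.000617). Sst was higher on 6 of 7 plates, at 34.0 to 936 against 9.62 to 265 (1.24 ± 0.26, SE; edgeR, adjusted p = 0.0210). It lost the call without E16 replicate 2 (0.98; edgeR, adjusted p = 0.0510), E16 replicate 4 (1.06; edgeR, adjusted p = 0.102) or P0 replicate 3 (1.13; edgeR, adjusted p = 0.0774), after thinning and in DESeq2 (1.31, adjusted p = 0.0844). Rln3 had 0 counts in the Pnoc carriers and 74 in the cells without Pnoc, which makes it at least 20.5-fold lower at a floor of 3 counts over the group. This value covers no spread between cells, and only 10 VGAT cells carried Rln3. The rest of the 112 Rln3 counts lay in cells with some Pnoc but under 3 counts of it. Among them were all 25 counts of E16 replicate 2. Rln3 had enough counts through the cells without Pnoc alone, so it had to differ to be tested (edgeR, adjusted p = 0.00369, not past the threshold in DESeq2). The other calls in these carriers are the 2 higher ones. Crhbp gave 1.34 (edgeR, adjusted p = 0.0739) and passed without E16 replicate 4 (1.74; edgeR, adjusted p = 0.0159), and Tac1 gave −0.78 (edgeR, adjusted p = 0.318) and passed without E16 replicate 2 (−1.26; edgeR, adjusted p = 0.0122).

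Outside the members, genes past the threshold and higher on every plate were ranked in the Pnoc carriers. The largest increases were in Onecut1 (1.36) and Emx2 (1.35), both transcription factors, Myo5b (1.34), a vesicle motor, Kctd4 (1.22) and Sema3e (1.14). Of 19 region markers, Gata3 and Sox14 (0.53 each) were higher, and Nr4a2 (−1.98) and Pax5 (−1.29) lower. As counts of cells, 75 of 190 Sst carriers (39.5%) also carried Pnoc, against 25.5% of the other VGAT cells. After thinning these were 34.8% and 28.5%, and the share was higher on 3 of 6 plates. Penk was carried by 11.0% of Pnoc carriers and 9.05% of the others (14.96% and 12.0% after thinning, higher on 6 of 7 plates). Sst and Penk shared 11 cells, 5.79% of Sst carriers and 7.86% of Penk carriers. Npy and Tac1 shared 1 cell, 1.15% of Npy carriers and 1.72% of Tac1 carriers.

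Whether the secretory genes were higher in cells with a precursor was asked by setting 726 VGAT cells with at least 3 counts of any precursor against the 734 with fewer of each, with the precursors left out. The cells with a precursor were deeper on each plate, with a median depth ratio of 1.26 (1.10 to 1.40). Glial and microglial markers moved with this split. The 5 microglia markers summed to a lowest, median and highest of 2.85, 4.44 and 78.1 CPM in the cells without a precursor, against 1.14, 3.87 and 25.2 in the cells with a precursor, and were lower in the latter on 6 of 7 plates. Of 4 tested, Csf1r was lower (−3.32; edgeR, adjusted p = 0.0159). It had enough counts in the cells without a precursor alone, so it had to differ. Its counts were 70 on E16 replicate 2 and 19 on P0 replicate 2, with 0 on the other VGAT plates. The 6 markers of radial glia and astrocytes summed to 12.9, 25.8 and 524 CPM against 7.97, 16.3 and 305, lower on 7 of 7 plates, and none of the 6 passed. Their part in the values that follow was not tested. In edgeR 0 of 12 members passed, beside 0.271% of 13275 genes higher and 0.64% lower. At an unadjusted p under 0.05 there were 5 members, and DESeq2 called 1, Crhbp. Crhbp had the largest log2 fold change (1.08; edgeR, adjusted p = 0.0701) and passed without P0 replicate 1 (0.96; edgeR, adjusted p = 0.0498). Pcsk1 was at 4.09 to 19.7 CPM against 3.21 to 10.1, higher on 7 of 7 plates (0.58; edgeR, adjusted p = 0.354), and Pam at 99.9 to 175 against 129 to 224, lower on 7 of 7 (−0.38; edgeR, adjusted p = 0.100). Cpe, Scg3, Scg5 and Pcsk2 lay within 0.05 of 0. Of 26 other processing and vesicle genes tested, Cyb561, a cytochrome of dense-core vesicles, was higher (0.45; edgeR, adjusted p = 0.0256).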

How the data were processed

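Single cells were sequenced with a 3′ method with molecular identifiers. The authors deposited 1 merged table of expected counts per gene and well for all plates, from reads aligned with STAR to mm10 per the submitters' processing notes, with exons and introns together; a merged table of spliced counts was an alternative. Expected counts were rounded to whole numbers. The tables held 32787 entries, of which 92 spike-ins and 34 mitochondrial entries were left out. Of 3455 wells, 1378 fell under 2000 genes, 37 lay over 50000 counts and 5 had 15% or more mitochondrial counts, which left 2035 cells. Of 376 well numbers in kept cells, 375 occurred on more than 1 plate. No doublet caller was run on these singly sorted wells.

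Counts were summed per plate over kept cells and compared by the quasi-likelihood F test of edgeR 4.0.16 (R 4.3.3), after TMM scaling and the filterByExpr filter on low counts, with p-values adjusted by Benjamini-Hochberg over all genes tested and a threshold of 0.05. DESeq2 1.42.0 was an alternative. Stage was fitted over 7 VGAT plates, sort over 9 plates with stage as a covariate, and carrier comparisons with plate as a block. Scripts were tested on simulated data. For thinning, each cell was drawn down to 4000 counts (seed 1); 79 shallower cells were left out and 1956 remained. Tables were made in Python 3.11.15 with pandas 2.3.3, numpy 2.4.6 and, for intervals, scipy 1.17.1, and figures with matplotlib 3.10.9.

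The members and the other gene lists were chosen with earlier results of these data known. Named were the members past a threshold or most variable among plates, in each carrier comparison the 5 other genes with the largest increase past the threshold and in the same direction on every plate, and the region markers past it. Single genes named because 1 plate decided their call were chosen after their values were seen. Genes outside the gene lists, such as most of those 5 in each carrier comparison, were not checked for having enough counts in 1 group alone. Their calls may therefore have been fixed by the filter. Whether counting used strand was not given in the sources used here, so reads of overlapping genes on the opposite strand cannot be told apart for Penk (A830012C17Rik), Grp (AC152076.4), Scg3 (Gm37871), Pcsk2 (Pcsk2os1, Pcsk2os2), Pcsk1n (Eras) and Pam (Gm24465, Gm25413). Nmb and Pam also overlap genes on their own strand. Some results for single genes of the region marker list are not reported here.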

Additional observations from a re-analysis of the deposited data

Results flagged for a closer look

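Chga was at 169.9 normalized CPM on VGAT E16 replicate 2, apart from the next highest of the 4 VGAT E16 plates at 125 normalized CPM. The gap was 0.874 of the range of the group, over Dixon's limit for 4 samples. It was the only one of 29 members checked to be set apart in this way, and chance sets apart about 1 in 20 groups. That plate also had the highest VGAT E16 levels of Vgf, Scg2, Tac1, Rln3 and Nts. It stood apart from the other VGAT E16 plates in 5 microglia markers as well, at 31.9 CPM against 1.96 to 5.74 CPM, and in Dlx1, at 138 CPM against 25.0 to 33.7 CPM. Their part in the Chga level was not tested.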

How the results depend on the processing

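Calls between stages moved with the plates used. Of 22 members, 4 were called, 10 (of 29) with no filter on low counts, and 1 to 8 with 1 plate left out (8 without VGAT E16 replicate 2, and 1 without E16 replicate 3 or 4 or P0 replicate 2 or 3). Over all genes these calls numbered 621, against 938 with DESeq2, 1593 with no filter and 76 to 832 with 1 plate left out. With the replicate number as a block, on replicates 1 to 3, 1 of 23 members and 202 genes were called. Deviations of plates with the same number correlated at 0.0247 to 0.0425, so the numbers do not pair the plates. An alternative chosen after seeing the data kept the 3 VGAT plates whose 2 plate labels give the same stage (E16 replicates 1 and 2, P0 replicate 2, the plate that stood apart and assumed to vary like the others). It called 6 members, and 2 log2 fold changes turned, Sst to 0.92 (edgeR, adjusted p = 0.00578) and Npy to 2.14 (edgeR, adjusted p = 0.0299), while those of Scg2 (0.54) and Rln3 (1.70) missed the threshold. For these turns the cause was not tested.

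Between sorts, 9 members were called, 14 with no filter and 7 to 11 with 1 plate left out. The interaction gave 0, and 2 with no filter. Cells with any precursor gave 0, 1 with DESeq2 and 0 to 1 with 1 plate left out. In carriers of Npy, 1 member was called, 4 when carriers were chosen after thinning, 4 with no filter, and 1 to 3 with 1 plate left out. For Penk these were 2, 2, 5 and 1 to 2, for Pnoc 3, 2, 7 and 2 to 3, for Sst 2, 1, 6 and 1 to 3, and for Tac1 9, 7, 10 and 7 to 9. DESeq2 called 1 for Sst. Without the plate block, 0 were called for Npy, Penk, Pnoc and Sst, and 2 for Tac1. Of 30 called member results, 10 passed under every alternative that could test them. Among these, Adcyap1, Cck, Grp and Pnoc between sorts had enough counts in 1 group alone, so they had to differ. The same held for Pcsk1 and Rln3 in Tac1 carriers. The others were Vgf between stages and Crhbp, Scg2 and Pcsk2 between sorts. The share of VGAT cells with a precursor was 49.7% at 3 counts, 91.5% at 1 count, 34.5% at 5 counts, and after thinning 65.0% at 1 count and 20.1% at 3.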

Other observations

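The carriers of the VGAT+PITX3 sort differed in the transmitter genes beside their peptide. Of 575 cells, 16 carried Adcyap1, and 14 of these (87.5%) had at least 3 counts of Slc17a6, the vesicular glutamate transporter of subcortical neurons, against 21.1% of the other cells. After thinning to 4000 counts these shares were 64.9% and 33.1%. None of the 16 had 3 counts of Slc6a3, the dopamine transporter, against 39.5% of the other cells (32.4% and 46.8% after thinning). The thinned shares were 18.75% and 49.1% on the E16 plate, but 42.9% and 43.9% on the P0 plate. At least 3 counts of Slc32a1 were found in 11 (68.8%), against 41.5% of the others (56.8% and 49.1% after thinning). The 102 Crhbp carriers had at least 3 counts of Th, the rate-limiting enzyme of dopamine synthesis, in 9.80% of cells against 44.8% of the others (30.6% and 59.1% after thinning), and of Slc32a1 in 63.7% against 37.6% (59.9% and 45.5%). Of the 26 Cck carriers, 16 (61.5%) had at least 3 counts of Th against 37.5% of the others, but 49.3% and 51.2% after thinning. At 3 counts the plates went opposite ways, with 33.3% against 42.4% at E16 and 76.5% against 31.9% at P0. Of the 10 Grp carriers, 5 also carried Crhbp, against 17.2% of the others (35.9% and 28.1% after thinning). Median depths were 11860 counts in Adcyap1 carriers against 10409 in the others, and 12440 against 10304 for Crhbp. These are cells of 2 plates, so the shares are given with no test.

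Within carriers, the level of a precursor could be high. Summed over the carriers of a VGAT plate, Sst was at 724 to 2013 CPM, Tac1 at 189 to 1624, Penk at 197 to 1171, Npy at 238 to 958 and Pnoc at 293 to 542. The highest Sst count in a single cell was 443, on E16 replicate 3. In the VGAT+PITX3 sort, the 7 and 9 Sst carriers of the E16 and P0 plates were at 861 and 1776 CPM, within the range of the VGAT plates, while the 11 and 3 Tac1 carriers were at 205.7 and 250.1 CPM, near the lowest VGAT plate.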
